A study of Mus musculus with 14 samples.

Results

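The genes described here are 40 members of the signalling apparatus that sits directly under the T cell receptor, out of 27179 genes in the count table. They were chosen by name for their known role, not from measured values, but with earlier results of these data known. They hold 4 CD3 and zeta chains, 4 surface coreceptors and modulators, 5 kinases, 5 adaptors and 3 exchange factors. The others are 4 enzymes of lipid second messengers, 2 parts of the CBM complex, 8 negative regulators and 5 genes of the calcineurin and NFAT branch. Their transcripts were measured in regulatory T cells (Tregs) sorted by yellow fluorescent protein, which marks cells with an active Foxp3 gene, from the spleen and from the flank tumor of endpoint mice that carried MC38 tumors (MC38 is a murine colon carcinoma line). WT libraries came from B6.IL23RWT FoxP3Cre-YFP mice, and Flox libraries from B6.IL23RFlox FoxP3Cre-YFP mice, in which Cre is to remove the receptor for interleukin-23 in the cells that express Foxp3. Every group thus carried the Cre-YFP allele and a tumor. There were 4 WT and 3 Flox libraries from each tissue, 14 in all; the labels give no age, nor whether the libraries of a group are separate animals, and p-values therefore speak of the spread among these libraries alone, which may be technical.

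A T cell receptor has no enzyme of its own. When it meets its ligand, Lck phosphorylates motifs in the CD3 and zeta chains, Zap70 docks there and phosphorylates the adaptors Lat and Lcp2, and these gather Plcg1, Vav1 and Grb2 with Sos1. Plcg1 makes diacylglycerol, which recruits Rasgrp1 and protein kinase C theta, and inositol trisphosphate, which raises calcium and frees NFAT through calcineurin. Phosphatases, ubiquitin ligases and lipid kinases hold each step back. Tregs depend on this receptor for their suppressive function, in tissues as in lymphoid organs.

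Libraries held 4859099 to 10333892 counts, and all 40 members had counts in all 14. Together they took 0.669% to 1.01% of a library's counts, with the lowest share in tumor WT library 1. Levels are given as CPM, the counts scaled to each library's total after TMM adjustment, and differences are log2 fold changes ± SE from edgeR's quasi-likelihood test with Benjamini-Hochberg adjustment over all genes of the fit. The genotype labels went against the targeted gene: Il23r had 17 counts over the 3 tumor Flox libraries and 2 over the 4 tumor WT libraries, and 10 against 2 in spleen. No source used here names the exons that the Flox allele loses, so reads outside the deleted part cannot be told apart from reads of an intact gene, and groups are named throughout by label only. Genotype label and sex moved together: Xist, expressed from the inactive X, had 9223 counts in tumor WT and 65 in tumor Flox libraries, while the Y-linked Ddx3y had 1181 and 12405. The WT libraries numbered 2 held both transcripts. Foxp3 was present in every library, between 98.3 and 268 CPM, and the CD8 T cell markers Cd8a and Cd8b1 summed to at most 11.5 CPM. A lower CPM in sorted bulk cells can stem from fewer cells with the transcript or from less of it per cell, and these cannot be told apart.

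Of the 4 receptor chains, Cd3e varied least and Cd247 most between libraries. Cd3e, a signalling chain of the CD3 complex, measured 297, 266, 234 and 240.2 CPM in the spleen WT libraries and 241, 249 and 264 in spleen Flox. In the tumor it measured 265, 290.0, 292 and 192 CPM in WT and 240.3, 389.8 and 198 in Flox libraries. The groups overlapped throughout, and the difference of tumor from spleen was 0.06 ± 0.22 (95% limits -0.42 to 0.54), the narrowest interval of any member. Cd3d ranged over 36.8 to 84.2 CPM and did not pass in any comparison. Cd3g measured 124, 101, 59.97 and 57.3 CPM in spleen WT, 168, 105 and 69.9 in spleen Flox, 166, 127, 100.3 and 86.5 in tumor WT and 84.02, 120.0 and 58.6 in tumor Flox. Its groups overlapped as well. Cd247, the zeta chain, was at 172, 44.01, 46.4 and 33.5 CPM in spleen WT and 98.5, 34.6 and 108 in spleen Flox. Tumor libraries held 48.9, 33.6, 52.6 and 243 CPM in WT and 231, 109 and 165 in Flox. The 3 tumor Flox libraries and tumor WT library 4 were high, spleen WT library 1 was high among its group, and no comparison passed (tumor against spleen, 0.66 ± 0.55, adjusted p = 0.421). Cd247 overlaps Pou2f1 in the annotation, and with the strand setting not given, reads of the pair cannot be separated (12882 counts for Cd247 and 6274 for Pou2f1 over all libraries).

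Scaled to exon length, the members spanned a wide range of levels. Over the 14 libraries the mean was 199.9 CPM per kb for Dgka, 187 for Lck, 137 for Ptpn2, 119.8 for Zap70, 115 for Cd4 and 102 for Ptprc. The lowest was Rcan1, with 5 to 26 counts per library. Neighbours at the top of this order did not differ beyond their spread: Dgka alone ranged over 264 to 2029 CPM and Lck over 133 to 993 CPM. Dgka overlaps Pmel, which had 3132 counts over all libraries against 112641 for Dgka.

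**Figure D1:**
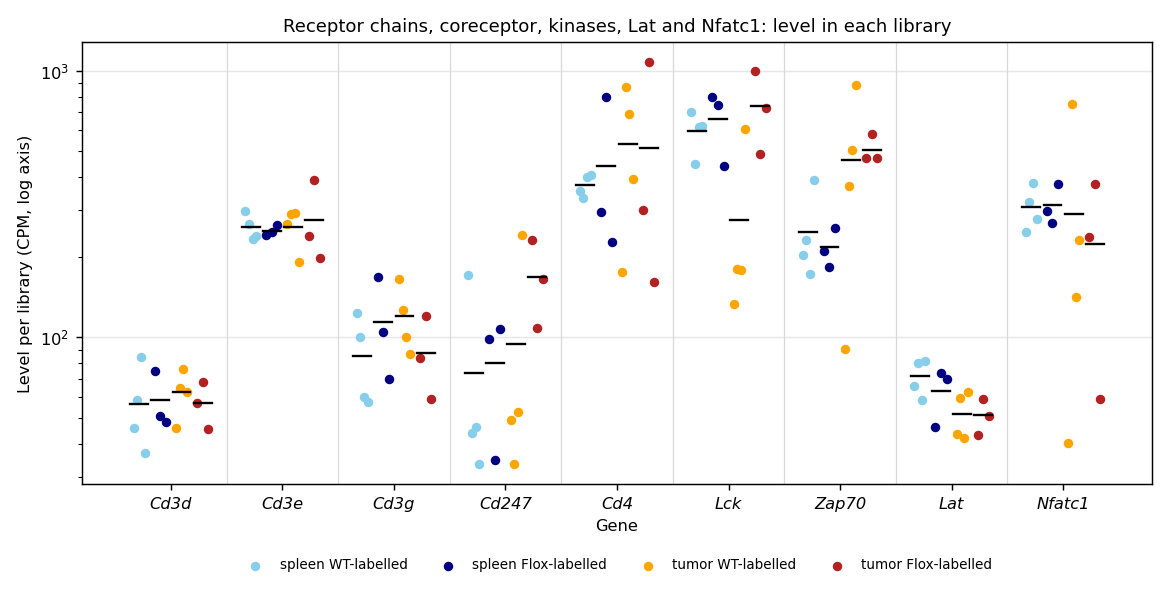
Level of 9 members in each library, in CPM on a log axis, by group. Each point is a library and each bar the group mean; Cd3e stays between 192 and 390 CPM in all 14 libraries, while Lck is at 133 to 181 CPM in 3 of the 4 tumor WT libraries and at 439 CPM or more in all others.

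Tregs from the tumor differed from those of the spleen in 7 of the 40 members when all 14 libraries entered the fit with the genotype label as a term. Lower in the tumor were Grap2, an adaptor that joins Lat to Lcp2, Prkcq, the kinase protein kinase C theta, and Ptpn6, the phosphatase SHP-1. Higher were Itpkb, Malt1, Ptpn22 and Cd5. Of the 12008 genes tested, 22.5% passed, 12.3% with higher and 10.2% with lower levels in the tumor, a larger share than that of the members. The median difference of the members was 0.11, beside 0.03 over all genes, and the median of its absolute value 0.62 beside 0.88. The groups did not overlap for 9.38% of all genes and for 1 member, Grap2.

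Grap2 measured 9.93, 4.68, 5.13 and 25.9 CPM in spleen WT and 7.72, 5.47 and 20.3 CPM in spleen Flox. In tumor Tregs it was at 1.95, 2.47, 1.97 and 2.95 CPM in WT and 1.67, 2.55 and 2.03 CPM in Flox. All 7 tumor libraries were below all 7 spleen libraries, with 10 to 24 counts each, and the difference was -2.33 ± 0.45 (adjusted p = 0.00238). Within WT it was -2.27 ± 0.62 (adjusted p = 0.06) and within Flox -2.41 ± 0.62 (adjusted p = 0.0645), and neither passed alone by edgeR's quasi-likelihood test, while DESeq2 called Grap2 within each label, a stricter filter in Flox and the fit of all 14 libraries in WT.

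Prkcq couples diacylglycerol to the CBM complex and NF-kB. It measured 216, 429, 206 and 179 CPM in spleen WT and 127, 171 and 181 CPM in spleen Flox. Tumor libraries measured 166, 13.02, 10.3 and 11.05 CPM in WT and 14.2, 13.01 and 10.3 CPM in Flox. Tumor WT library 1 lay within the spleen range, while the other 6 tumor libraries were all at or below 14.2 CPM. The difference was -2.92 ± 0.67 (adjusted p = 0.00711), and without tumor WT library 1 it was -4.10 (adjusted p = 1.56e-05). Prkcq was the 1 member that passed within Flox (-3.66 ± 0.50, adjusted p = 0.02), but not when any of 5 of the 6 libraries was left out (adjusted p = 0.0502 to 0.0661). Within WT the difference was -2.38 ± 1.02 (adjusted p = 0.176).

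Ptpn6 removes phosphate from proximal substrates of the receptor. Its level was 143, 93.5, 123 and 101 CPM in spleen WT, 114, 103 and 65.1 in spleen Flox, 101, 21.5, 60.6 and 17.1 in tumor WT and 16.2, 27.04 and 14.5 in tumor Flox. Tumor WT library 1 lay inside the spleen range, and the other 6 tumor libraries lay below every spleen library. The difference was -1.67 ± 0.45 (adjusted p = 0.0158). Ptpn6 is also transcribed in B cells and myeloid cells. Summed B cell markers (9 genes) fell alongside it, from 445 to 2124 CPM in spleen to 49.5 to 310 CPM in tumor, with Pax5 and Cd22 at 0 in all tumor Flox libraries; 10 macrophage and monocyte markers summed to 7.46 to 249 CPM in spleen and 14.6 to 169 CPM in tumor. In tumor WT library 1, the one with 101 CPM of Ptpn6, the B cell sum was 62.1 CPM. The part of other cells in the difference was not tested.

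Itpkb phosphorylates inositol trisphosphate and so takes it out of the calcium branch. It was at 48.4, 29.4, 22.5 and 16.9 CPM in spleen WT and 29.1, 28.6 and 20.01 CPM in spleen Flox. Tumor libraries held 25.2, 168, 106 and 104 CPM in WT and 231, 55.9 and 32.6 CPM in Flox. All but 2 of the 7 tumor libraries were above the spleen maximum, and the difference was 1.89 ± 0.51 (adjusted p = 0.0164). The call was lost with both WT libraries numbered 2 left out (1.69, adjusted p = 0.0571).

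Malt1, the protease of the CBM complex, stood at 18.1, 30.1, 30.1 and 73.3 CPM in spleen WT and 66.7, 39.7 and 43.96 CPM in spleen Flox. Tumor libraries were at 366, 68.95, 265 and 46.4 CPM in WT and 47.1, 339 and 67.8 CPM in Flox. Tumor WT libraries 1 and 3 and tumor Flox library 2 were far above the rest, and the other 4 tumor libraries overlapped the spleen range. The difference of 2.00 ± 0.59 (adjusted p = 0.0268) was lost when any of 5 libraries was left out, with an adjusted p of 0.101 without tumor Flox library 2. Malt1 also did not pass by limma voom (adjusted p = 0.0636). Nor did it pass by edgeR with a replicate block (adjusted p = 0.0783) or without both WT libraries numbered 2 (adjusted p = 0.0544). Bcl10, its partner in the complex, ranged over 8.21 to 37.7 CPM and did not pass (0.68 ± 0.32, adjusted p = 0.15).

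Among the negative regulators, Ptpn22 moved the other way from Ptpn6. This phosphatase of Lck and Zap70 was at 204, 131, 257 and 499 CPM in spleen WT and 323, 278 and 274 CPM in spleen Flox. It was at 598, 431, 723 and 632 CPM in tumor WT and 614, 1039 and 358 CPM in tumor Flox. Spleen WT library 4 was as high as the lower tumor libraries, and the remaining spleen libraries were below the tumor range. The difference was 1.16 ± 0.31 (adjusted p = 0.0164), and it passed in each fit that left out 1 library.

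Cd5, a surface receptor that dampens receptor signals, was measured at 205, 146, 138 and 126 CPM in spleen WT and 160.3, 152 and 162 CPM in spleen Flox. Tumor values were 298, 303, 199.8 and 329.9 CPM in WT and 176, 269 and 281 CPM in Flox. The change was small and even, at 0.77 ± 0.23 (adjusted p = 0.0306), and spleen WT library 1 overlapped the tumor range. It did not pass when any of 7 libraries was left out (adjusted p up to 0.0624). By edgeR it also did not pass with no filter (adjusted p = 0.103) or with a replicate block (adjusted p = 0.0704). Without both WT libraries numbered 2 the adjusted p was 0.0978.

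**Figure D2:**
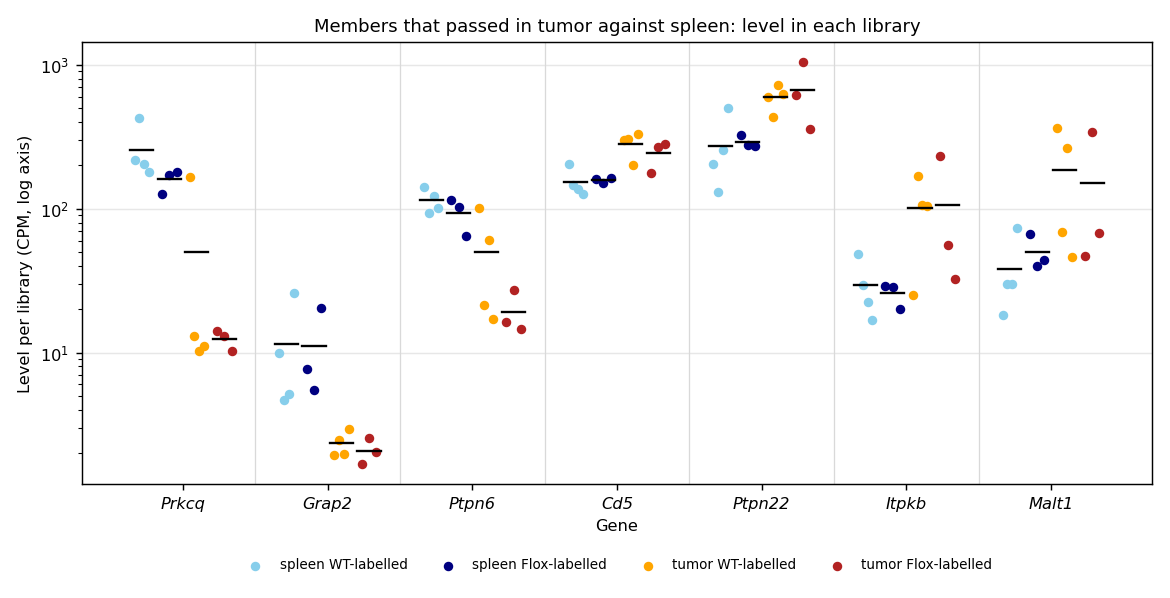
Level of the 7 members that passed in tumor against spleen in each library, in CPM on a log axis, ordered from the largest fall to the largest rise. Points are libraries and bars group means; tumor WT library 1 has 166 CPM of Prkcq while the other 6 tumor libraries have 10.3 to 14.2 CPM.

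Promoter windows are shown for 3 of these genes, Grap2, Ptpn6 and Ptpn22. Their calls passed in every fit that left out 1 library and in the fit without both WT libraries numbered 2. Their windows overlap annotated exons of GENCODE M21 by no more than 5 bases. They hold the 250 bases upstream of a RefSeq transcript start (GRCm38.p6), 5′ to 3′ on the gene's strand. Capitals mark GGAAA, the core bound by NFAT, which contains the GGAA core of the ETS family, and TGTGGT, a RUNX core, each on either strand (TTTCC and ACCACA are their reverse complements).
Grap2 (chr15:80623233-80623482, plus strand): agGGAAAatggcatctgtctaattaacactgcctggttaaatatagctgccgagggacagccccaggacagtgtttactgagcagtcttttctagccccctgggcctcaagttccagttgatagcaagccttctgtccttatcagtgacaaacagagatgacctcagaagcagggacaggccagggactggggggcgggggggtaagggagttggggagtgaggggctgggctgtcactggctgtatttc
Ptpn6 (chr6:124738710-124738959, minus strand): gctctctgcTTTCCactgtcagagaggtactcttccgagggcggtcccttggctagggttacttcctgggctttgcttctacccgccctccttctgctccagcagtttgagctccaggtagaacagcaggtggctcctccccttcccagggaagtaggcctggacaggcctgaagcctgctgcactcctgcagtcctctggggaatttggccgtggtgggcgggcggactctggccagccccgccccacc
Ptpn22, upstream start (chr3:103859545-103859794, plus strand): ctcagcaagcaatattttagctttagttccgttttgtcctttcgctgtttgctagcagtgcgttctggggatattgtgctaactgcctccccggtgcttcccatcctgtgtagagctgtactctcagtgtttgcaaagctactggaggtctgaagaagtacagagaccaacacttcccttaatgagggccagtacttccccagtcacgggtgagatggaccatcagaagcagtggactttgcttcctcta
Ptpn22, downstream start (chr3:103860027-103860276, plus strand): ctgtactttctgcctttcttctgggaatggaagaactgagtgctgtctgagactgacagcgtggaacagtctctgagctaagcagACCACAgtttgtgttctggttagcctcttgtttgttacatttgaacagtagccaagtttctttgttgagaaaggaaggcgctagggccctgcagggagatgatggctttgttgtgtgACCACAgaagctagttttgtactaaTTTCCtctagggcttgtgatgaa
The windows of Grap2 and Ptpn22 lie inside the spans of these genes, chr15:80572597-80652854 and chr3:103856575-103912252, upstream of internal starts, and that of Ptpn6 abuts the gene at chr6:124720707-124738709. Grap2 and Ptpn6, which fell, each hold 1 match to GGAAA, and the downstream window of Ptpn22, which rose, holds 1 match and 2 to TGTGGT. The window of Itpkb, which rose and lost its call without both WT libraries numbered 2, is not printed and holds 3 matches to GGAAA. RefSeq lists 50 windows for 33 of the 40 members. GGAAA is in 68% of these and in 55.6% of all 32851 upstream windows of the same 250 bases, TGTGGT in 10% and 14.0%, and TGANTCA, the AP-1 motif, in 2% and 6.75%. These matches are letters in a window, not bound sites.

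The other 33 members did not pass between tissues by edgeR's quasi-likelihood test; of these, DESeq2, which called 30.6% of all genes, called Cd6, Txk, Ubash3a, Ubash3b and Zap70, and limma voom, which called 23.0%, called Zap70. Of the kinases, Zap70 came closest: it was at 203, 232, 173 and 389.8 CPM in spleen WT and 212, 184 and 258 CPM in spleen Flox. In the tumor it was at 90.9, 371, 506 and 880.4 CPM in WT and 469, 578 and 469.9 CPM in Flox. Tumor WT library 1 was the lowest of all 14, and the difference of 1.03 ± 0.38 (adjusted p = 0.0699) became 1.23 (adjusted p = 0.00556) without it. Fyn (61.4 to 224 CPM) and the Tec-family kinase Txk (19.7 to 137 CPM) did not pass. Lat, the hub on which the complex assembles, measured 65.9, 80.4, 58.4 and 81.9 CPM in spleen WT and 46.00, 73.6 and 70.1 CPM in spleen Flox. Its tumor values were 43.4, 59.1, 41.9 and 62.4 CPM in WT and 43.2, 58.9 and 50.9 CPM in Flox. Those ranges overlapped, with a difference of -0.40 ± 0.27 (adjusted p = 0.308). The further adaptors Lcp2 (127 to 704 CPM) and Grb2 (60.8 to 297 CPM) did not pass, nor did Plcg1 (19.6 to 51.98 CPM) or the Ras exchange factors Rasgrp1 (33.4 to 107 CPM) and Sos1 (13.2 to 366 CPM).

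Cd4, the coreceptor that brings Lck to the receptor, was at 355, 332, 399 and 407 CPM in spleen WT and 294, 796 and 228 CPM in spleen Flox. It was at 175, 871, 688 and 391 CPM in tumor WT and 301, 1074 and 162 CPM in tumor Flox. The tumor groups each covered the whole spleen WT range, and the difference was 0.39 ± 0.45 (adjusted p = 0.582). Cd6 (47.1 to 151 CPM) and Ptprc (612 to 2827 CPM), the phosphatase CD45 that activates Lck, did not pass either. Nfatc1, a transcription factor at the end of the calcium branch, measured 249, 322, 379 and 278 CPM in spleen WT and 298, 268 and 377 CPM in spleen Flox. In the tumor it measured 40.1, 749, 142 and 231 CPM in WT and 238, 375 and 58.6 CPM in Flox. Spleen values were close together and tumor values spread on both sides of them (-0.26 ± 0.53, adjusted p = 0.768). Nfatc3 (203 to 757 CPM), the calcineurin subunit Ppp3ca (14.3 to 94.1 CPM) and the calcineurin regulator Rcan1 (0.940 to 2.39 CPM) did not pass. Of the negative regulators, Ubash3b, a phosphatase of Zap70, ranged over 39.05 to 505 CPM and differed by 1.39 ± 0.55 (adjusted p = 0.0876), and Csk, Pag1, Ptpn2, Ubash3a and Cblb did not pass by that test either.

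**Figure D3:**
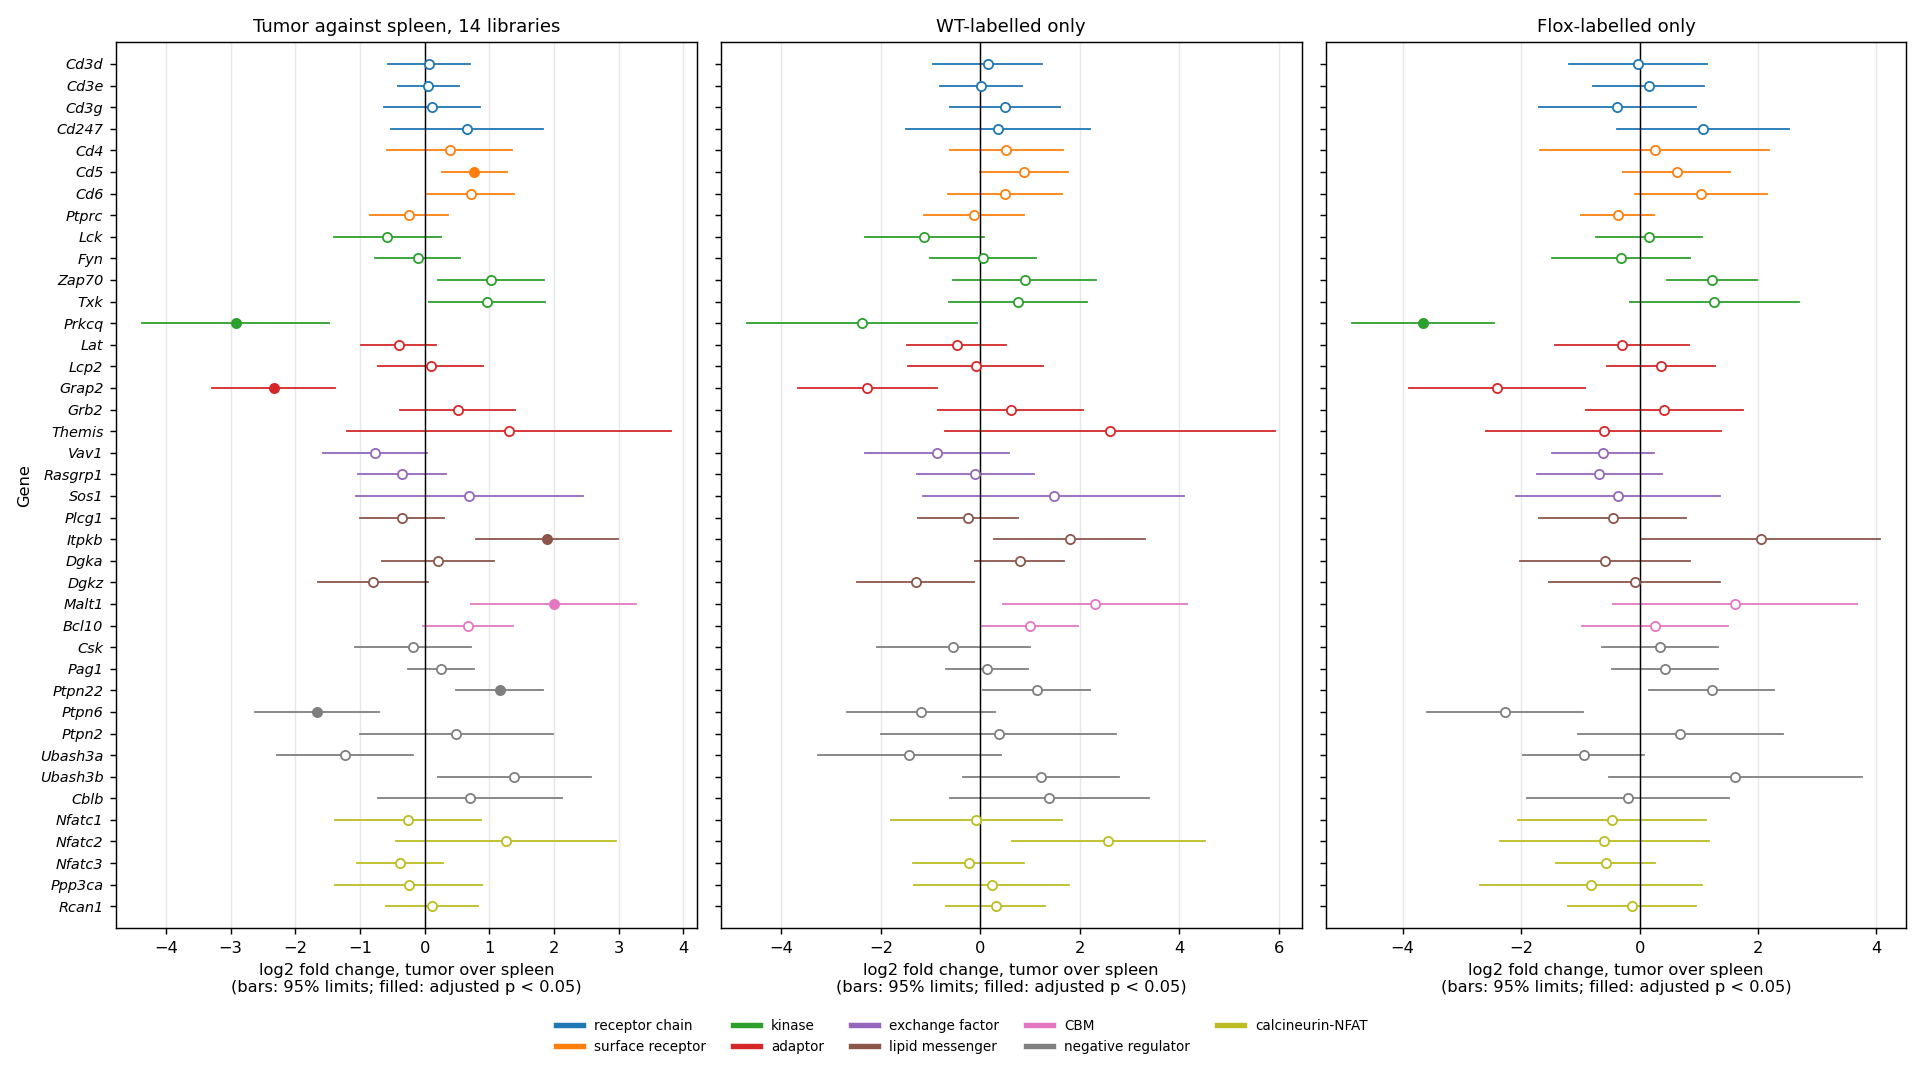
Difference of tumor from spleen for each of the 40 members as a log2 fold change with 95% limits, over all 14 libraries (left), WT-labelled libraries (middle) and Flox-labelled libraries (right). Colours give the role and filled points an adjusted p under 0.05: 7 members on the left, 0 in the middle and 1, Prkcq, on the right.

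Within each label, the tissue contrasts gave fewer calls. In WT, 0 of 40 members passed beside 7.1% of the 10560 genes tested, by edgeR's quasi-likelihood test. DESeq2 called 7 members there beside 23.0% of all genes, and limma voom 1 beside 866 of 10560 genes. In Flox, 1 of 40 passed beside 7.87% of 10760 genes, and DESeq2 called 8 beside 27.0%. Groups did not overlap for 5 members in WT (18% of all genes): Bcl10 and Nfatc2 were higher in all tumor libraries, and Dgkz, Grap2 and Prkcq lower. In Flox the count was 15 (33% of all genes), with 9 members higher in the tumor, among them Zap70, Cd5, Cd6, Ptpn22 and Cd247, and 6 lower, among them Vav1, Ptpn6 and Rasgrp1. Grap2 and Prkcq were lower without overlap in both. They were the 2 of 40 members (5%) without overlap in the same direction in both labels. Of the 10263 genes tested in both, 11.1% did so, a larger share. The sign of the difference was shared by 27 of the 40 members (67.5%), and by 67.2% of the 10263 genes tested in both contrasts, which have no library in common.

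Dgkz, which like Dgka turns diacylglycerol into phosphatidic acid, was at 204, 85.7, 112 and 70.9 CPM in spleen WT and 58.6, 51.6, 31.5 and 49.1 CPM in tumor WT. In Flox it was at 66.8, 79.1 and 74.9 CPM in spleen and 49.01, 119.6 and 36.8 CPM in tumor, where the groups overlapped. The WT difference was -1.30 ± 0.52 (adjusted p = 0.151) and the Flox difference -0.08 ± 0.60 (adjusted p = 0.944). Nfatc2, a further NFAT factor, was at 15.9, 19.4, 13.5 and 17.3 CPM in spleen WT and 20.9, 246, 99.8 and 23.4 CPM in tumor WT. Its Flox values were 76.5, 16.9 and 24.2 CPM in spleen and 17.03, 22.2 and 38.9 CPM in tumor. Tumor WT libraries 2 and 3 and spleen Flox library 1 were high. The difference was 2.57 ± 0.86 in WT (adjusted p = 0.101) and -0.59 ± 0.74 in Flox (adjusted p = 0.637).

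The comparison stated in the study's design, Flox against WT within a tissue, called none of the members. Label and sex moved together, so a difference of label cannot be told apart from one of sex. In tumor, 0 of 40 passed by edgeR's quasi-likelihood test, as did 0% of the 10777 genes tested, and at an unadjusted p under 0.05 it was 0 of 40 beside 8.08% of genes. In spleen it was 0 of 40 beside 0% of 10935 genes, and 0 of 40 beside 6.86% without adjustment. Xist did not pass in spleen either, at 68.6 to 406 CPM in WT and 0.502 to 0.871 CPM in Flox. The absence of calls thus leaves room for large differences. DESeq2 called 256 genes in tumor and 124 in spleen, and it and limma voom called 0 members in both tissues. The members' median difference was -0.16 in tumor (13 higher and 27 lower in Flox) and 0.05 in spleen (23 higher and 17 lower), beside -0.06 over all genes in each tissue. The 95% limits were wide: for Cd3e in tumor they ran from -1.04 to 1.20, and for Themis from -7.35 to 0.87. Differences inside these limits were not excluded.

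Lck, the kinase that starts the cascade, had the smallest p of the members in tumor. It was at 133, 181, 179 and 605 CPM in the WT and 993, 486 and 725 CPM in the Flox libraries, against 702, 449, 616 and 620.0 CPM in spleen WT and 796, 745 and 439 CPM in spleen Flox. Tumor WT libraries 1, 2 and 3 were below all others, while tumor WT library 4 overlapped the Flox values. The tumor difference was 1.42 ± 0.62 (95% limits -0.03 to 2.87, adjusted p = 0.584 by edgeR's quasi-likelihood test), and in spleen it was 0.15 ± 0.27 (adjusted p = 0.921). Between tissues within WT it was -1.13 ± 0.53 (adjusted p = 0.207), and -1.83 (adjusted p = 0.0439) without tumor WT library 4.

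In tumor the groups did not overlap for 2 of the 40 members, a share near the 4.99% of all genes. These were Csk, a kinase of the inhibitory site of Lck, and Pag1, the membrane anchor of Csk. They differed in opposite directions. Csk was at 17.00, 48.2, 82.7 and 19.3 CPM in tumor WT and 117, 108 and 131 CPM in tumor Flox, with every Flox library higher (1.46 ± 0.73, adjusted p = 0.584). In spleen it was at 91.6, 57.8, 71.2 and 28.2 CPM in WT and 88.9, 93.3 and 98.6 CPM in Flox, where the ranges overlapped. Pag1 was at 11.3, 12.5, 11.5 and 15.1 CPM in tumor WT and 10.1, 9.57 and 9.91 CPM in tumor Flox, with every Flox library lower (-0.36 ± 0.34, adjusted p = 0.772). Its spleen values, 10.4, 15.1, 9.57 and 10.9 CPM in WT and 5.81, 8.33 and 8.12 CPM in Flox, also did not overlap, and Flox was again lower (-0.63 ± 0.41, adjusted p = 0.745). Pag1 was the 1 member of 40 without overlap in the same direction in both tissues, beside 0.304% of the 9882 genes tested in both. The second member without overlap in spleen, where the share of all genes was 5.89%, was Vav1, the exchange factor for Rac. It measured 192, 132, 279 and 296 CPM in spleen WT and 359, 402 and 346 CPM in spleen Flox (0.71 ± 0.33, adjusted p = 0.674). In the tumor Vav1 was at 26.97, 102, 158 and 205 CPM in WT and 211, 320.0 and 182 CPM in Flox, and the groups overlapped.

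Other members with small p-values in these contrasts had large spreads inside a group. Dgka was at 2029, 1331, 611 and 1781 CPM in tumor WT and 264, 287 and 1150.1 CPM in tumor Flox (-1.35 ± 0.66, adjusted p = 0.584), and at 944, 558, 1031 and 779 CPM in spleen WT and 814, 998 and 747 CPM in spleen Flox. Tumor Flox library 3 lay among the WT values. Themis, an adaptor of the T cell lineage, was at 5.47, 2.04, 5.63 and 189 CPM in tumor WT and 1.99, 10.5 and 3.04 CPM in tumor Flox, with 2.56, 6.63, 20.02 and 3.01 CPM in spleen WT and 14.7, 3.98 and 4.94 CPM in spleen Flox. Its tumor difference of -3.24 ± 1.77 (adjusted p = 0.6) rested on tumor WT library 4 and was 0.24 without it. Ptpn6 differed by -1.38 ± 0.79 in tumor (adjusted p = 0.615) and Prkcq by -0.69 ± 0.38 in spleen (adjusted p = 0.703).

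In spleen the rest of the smallest p-values belonged to 2 negative regulators and Nfatc2. Ubash3a, a member of the STS family, was at 33.4, 128, 48.7 and 18.8 CPM in WT and 31.5, 20.1 and 25.5 CPM in Flox (-1.15 ± 0.70, adjusted p = 0.728), and at 13.5, 13.7, 48.4 and 8.47 CPM in tumor WT and 12.2, 13.8 and 13.9 CPM in tumor Flox. Spleen WT library 2 and tumor WT library 3 were high. Ptpn2, a phosphatase of Lck and of cytokine signals, was at 367, 164, 228 and 373 CPM in spleen WT and 628, 264 and 415 CPM in spleen Flox (0.63 ± 0.41, adjusted p = 0.745). In the tumor it split inside both groups, at 27.2, 709, 672 and 24.2 CPM in WT and 923, 144 and 1038 CPM in Flox. Nfatc2 differed by 1.26 ± 0.60 in spleen (adjusted p = 0.674) and by -1.94 ± 1.04 in tumor (adjusted p = 0.594).

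The test of whether the genotype difference itself differed between tissues called 0 of 40 members, beside 0% of 12008 genes, by edgeR's quasi-likelihood test. Without adjustment 1 member, Nfatc2, was under 0.05 beside 10.8% of genes (-3.15 ± 1.18, adjusted p = 0.425). Next by p were Dgka at -1.39 ± 0.73, Lck at 1.27 ± 0.70, Themis at -3.26 ± 1.94, Dgkz at 1.20 ± 0.74 and Cd3g at -0.87 ± 0.68, with adjusted p between 0.511 and 0.669. The sign of the genotype difference was the same in tumor and spleen for 18 of 40 members (45%), and for 50.2% of the 9882 genes tested in both.

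**Figure D4:**
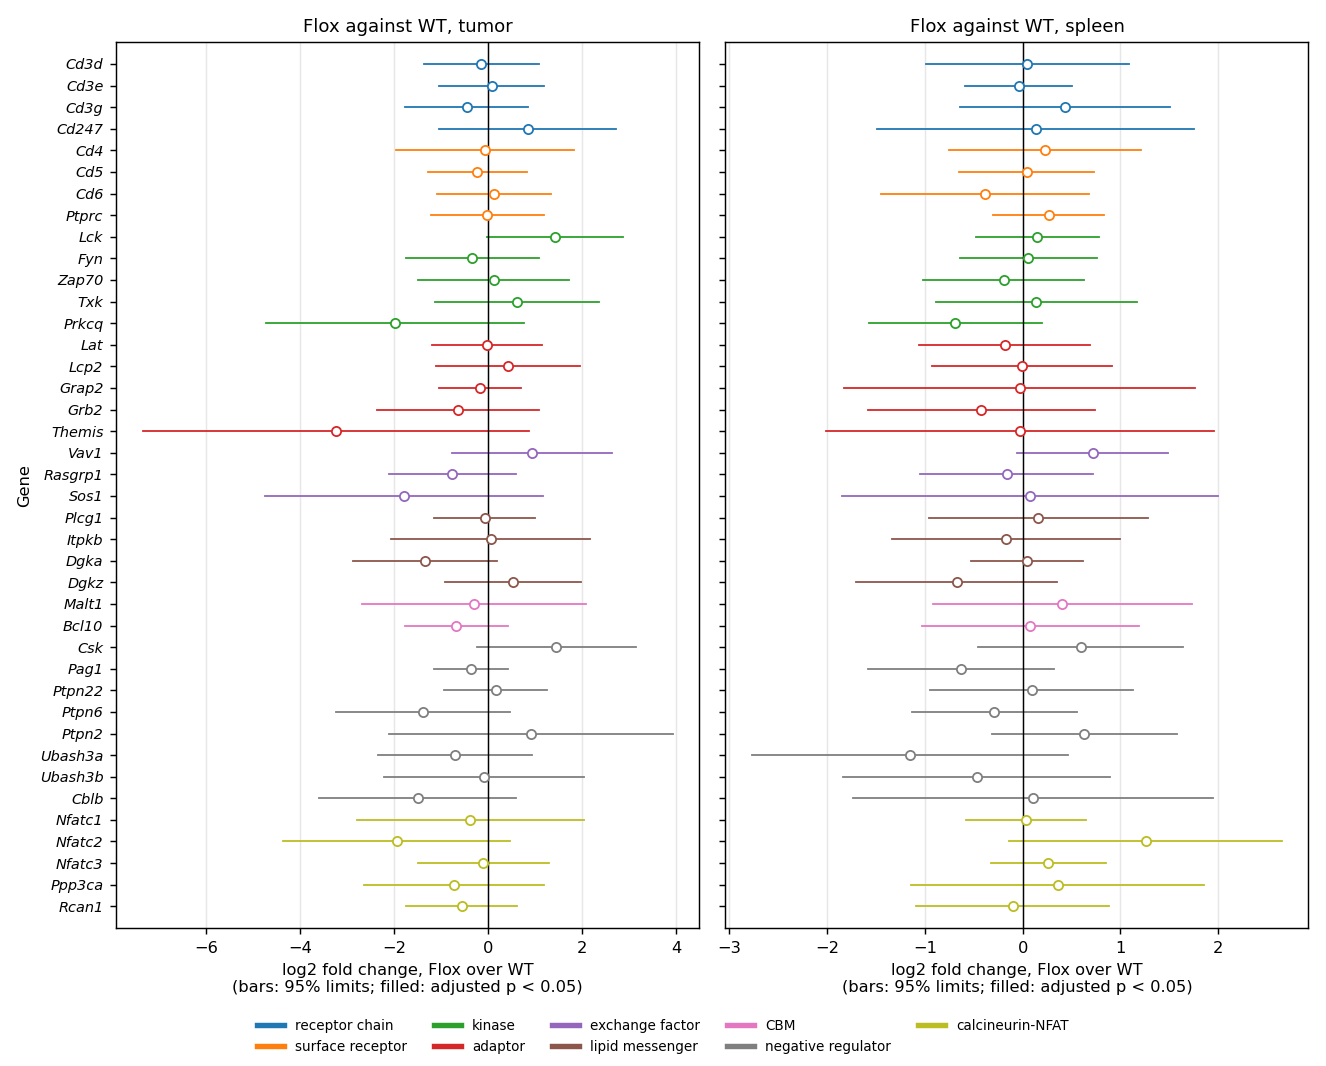
Difference of Flox-labelled from WT-labelled libraries for each of the 40 members as a log2 fold change with 95% limits, in tumor (left) and spleen (right). Open points mark members that did not pass, which is all 40 in both tissues.

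Spread between libraries of a group was largest in tumor WT. The median coefficient of variation was 36.3% for members and 52.8% for 8718 genes with a mean of at least 5 CPM in spleen WT, 26.5% and 40.8% in spleen Flox, 34.9% and 50.5% in tumor Flox, and 62.8% and 66.4% in tumor WT. In tumor WT, 6 members spanned more than 10-fold, led by Themis at 92.4-fold, Ptpn2 at 29.3-fold and Sos1 at 27.7-fold, beside 32.7% of those genes. By coefficient of variation, Plcg1 (7.95%) and Pag1 (13.7%) were the steadiest members of that group. Tumor WT library 1 was the highest tumor library for 11 members and the lowest for 9. It was highest for Prkcq, Rasgrp1, Malt1, Bcl10, Ptpn6, Cblb and Dgka among others, and lowest for Ptprc, Lck, Zap70, Vav1, Csk and Nfatc1. Cblb, a ubiquitin ligase that restrains receptor signals, was at 1492, 228, 373 and 399.6 CPM in tumor WT. Summed immediate early and heat shock genes (19 genes), which respond to cell handling as well as to stimulation, were at 8043 CPM in that library and at 2991 to 6957 CPM in the other tumor libraries. Their part in these values was not tested.

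**Figure D5:**
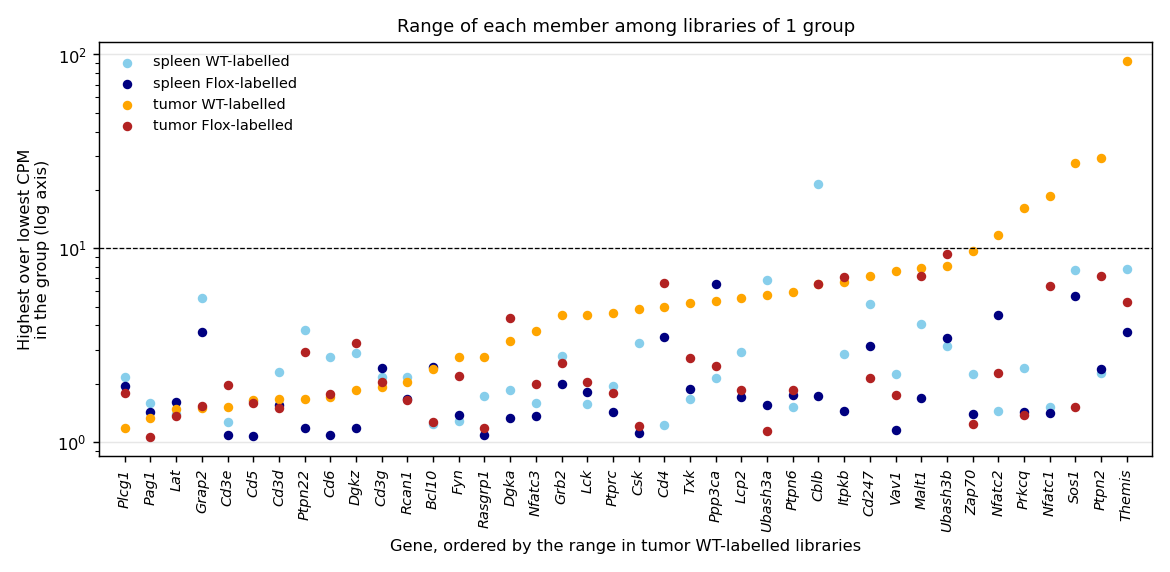
Highest over lowest CPM within each group for every member, on a log axis, ordered by the range in tumor WT-labelled libraries. The dashed line marks 10-fold; 6 members exceed it in tumor WT, 1, Cblb, in spleen WT, and 0 in both Flox groups, beside 32.7% of the 8718 genes with a mean of at least 5 CPM in tumor WT, 21.4% in spleen WT, 11.02% in spleen Flox and 20.9% in tumor Flox.

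Other genes of the pathway were called in both directions between tissues. Of 66 further genes of receptor signalling, 65 were tested over all 14 libraries, and 7 passed as higher and 10 as lower in the tumor, with a median of -0.05; over all genes 12.3% passed as higher and 10.2% as lower, with a median of 0.03. The 4 with the smallest p were all lower. Pik3ip1, an inhibitor of phosphoinositide 3-kinase, differed by -4.81 ± 0.83, the receptor constant region Trbc2 by -1.30 ± 0.22, the adaptor Skap1 by -1.67 ± 0.32 and the adaptor Sh2d1a by -1.88 ± 0.38 (adjusted p = 0.00119 to 0.00346). Trbc2 shares most of its sequence with Trbc1, so reads of the pair may be split. In the genotype comparisons 0 of these genes passed, of 64 tested in tumor and 65 in spleen, by edgeR's quasi-likelihood test. Without adjustment 1 in each was under 0.05, Carmil2 in tumor (1.52 ± 0.55) and Stim2 in spleen (0.51 ± 0.18). The shares of all genes were 8.08% and 6.86%.

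Genes that antigen induces downstream of the receptor were measured beside the members. Of 15, 7 passed as higher and 3 as lower in the tumor over all 14 libraries, beside 12.3% and 10.2% of all genes. The summed level of the list was 475 to 743 CPM in spleen and 2687 to 3683 CPM in tumor, without overlap. Gene by gene, 3 of the 15 were higher and 1 lower in the tumor without overlap, beside 9.38% of all genes in either direction. The estimate was higher in the tumor for 11 and lower for 4. The costimulatory receptors Icos (3.75 ± 0.28), Tnfrsf9 (2.68 ± 0.29) and Tnfrsf4 (2.43 ± 0.28) rose and the transcription factor Myc fell (-2.27 ± 0.40). Of the Treg markers, Tnfrsf18, Ctla4, Il2ra and Ikzf2 rose, while Foxp3 differed by -0.13 ± 0.29 (adjusted p = 0.783). In Flox against WT, 0 of 14 tested antigen response genes passed in either tissue. Without adjustment 1 in tumor and 0 in spleen were under 0.05, beside 8.08% and 6.86% of all genes. Of 19 immediate early and heat shock genes, 17 were at a higher level in the tumor, beside 50.75% of all genes. In this list 7 passed as higher and 0 as lower, beside 12.3% and 10.2% of all genes. Its sum was 2406 to 3770 CPM in spleen and 2991 to 8043 CPM in tumor. The B cell marker sums given with Ptpn6 also differed between tissues in the same libraries. The part of either in these lists was not tested.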

How the data were processed

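Polyadenylated RNA of 14 libraries was measured, and the authors deposited unnormalized read counts for each gene. The labels' protocols name the Qiagen RNeasy Plus micro kit for extraction and the ultra-low input pipeline of GeneWiz for the libraries. The build is mm10, per the submitters' processing notes; aligner, counting tool and strand setting were not given in the sources used here. Thus reads of overlapping genes or near-identical copies cannot be separated. Gene IDs were matched to RefSeq GRCm38.p6 symbols (25275 of 27179 IDs); 1904 unnamed IDs stayed in the fits, with 1.25% to 1.95% of a library's counts. Exon lengths came from GENCODE M21. The 40 members, all gene lists, the tests, the alternatives and the naming rule were chosen with earlier results of these data known.

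Counts were tested with edgeR 4.0.16 in R 4.3.3 (quasi-likelihood F test, TMM, filterByExpr by group, threshold 0.05 on Benjamini-Hochberg adjusted p over all genes of the fit). Only the libraries of a contrast entered its fit; the tissue contrast over 14 libraries had the genotype label as a term, and the difference of the genotype contrasts used all 14. The SE is the log2 fold change divided by the square root of F, without its sign. Values in every library are given for members that passed, filled by smallest p to 6 per comparison, and for 7 core genes. List genes are named up to 4 per list by smallest p. Alternatives were DESeq2 1.42.0, limma 3.58.1 voom with sample quality weights, RLE scaling, other filters, a replicate block, all libraries in 1 fit and libraries left out. The code was tested on simulated data. Depth was 4859099 to 10333892 counts, so 3 counts correspond to 0.290 to 0.617 CPM. No pair of libraries of a group agreed within sampling noise.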

Additional observations from a re-analysis of the deposited data

Results flagged for a closer look

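In groups of 4 libraries, a library was picked out where its gap to the nearest other exceeded Dixon's limit. Of 80 groups of member values, 9 had such a library. The limit is set for about 1 in 20 groups of independent, normally distributed values. CPM need not be so distributed, and the 80 groups share the same libraries. The 9 therefore cannot be set against that rate. Tumor WT library 4 stood above its group for Lck (605 CPM, the others 133 to 181), Cd247 (243 CPM, the others 33.6 to 52.6) and Themis (189 CPM, the others 2.04 to 5.63). Tumor WT library 1 stood above its group for Prkcq (166 CPM, the others 10.3 to 13.0) and Cblb (1492 CPM, the others 228 to 399.7). Tumor WT library 3 was high for Ubash3a (48.4 CPM, the others 8.47 to 13.7). In spleen WT, library 1 was high for Cd247 (172 CPM, the others 33.5 to 46.4), library 2 for Prkcq (429 CPM, the others 179 to 216) and library 4 for Bcl10 (13.5 CPM, the others 10.9 to 11.4). All 9 were high and none low.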

How the results depend on the processing

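The counts of calls and the differences of the named members were recomputed under the alternatives named with the processing; list counts, spreads, overlaps and shared signs were not. For Flox against WT within a tissue, leaving out both WT libraries numbered 2 is the same fit as leaving out that tissue's one. The cause of the changes below was not tested. DESeq2 called 256 genes in Flox against WT in tumor, 124 in spleen and 135 for their difference, where edgeR called 0, with 0 members each. Limma voom called 1 gene in tumor. In spleen the stricter filter called 1, the fit of all 14 libraries 4, and leaving out 1 library 0 to 1, as for the difference of the contrasts (0 to 1). Between tissues in WT, DESeq2 called 7 members and 2430 genes (23.0%), voom 1 member and 866 genes, the fit of all 14 libraries 1 member and 1514 genes (12.6%), and leaving out both libraries numbered 2 left 329 genes; leaving out 1 library gave 0 to 1 members and 373 to 658 genes. In Flox, DESeq2 called 8 members and 2910 genes (27.0%), voom 3 members (8.78% of genes), the stricter filter 3 members (9.72% of genes) and no filter 457 genes; leaving out 1 library gave 0 to 1 members and 0 to 472 genes. Over all 14 libraries DESeq2 called 11 members beside 30.6% of genes, with no adjusted p for Prkcq, and the fit without both WT libraries numbered 2 called 4 beside 20.5%.

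The labels do not say whether replicate numbers pair the libraries. Deviations from the group mean correlated at -0.031 to 0.051 between spleen and tumor libraries of the same number and label. For different numbers it was -0.098 to 0.071. Such values near 0 cannot decide whether a number marks a shared animal or batch, since tissues may deviate separately. The WT libraries numbered 2 held both Xist and Ddx3y in both tissues. The replicate block took the replicate number alone. In fits that held both labels it thus grouped WT and Flox libraries of the same number, which came from mice of different genotype label. With this block, 173 genes passed between tissues in WT and 1 gene and 0 members in Flox, and over all 14 libraries 5 members beside 18.8% of genes. Under the replicate block the sign turned for Cd3e (-0.12) and Lat (0.063) in tumor Flox against WT, Zap70 (0.11) in spleen and Cd3e (-0.0096) between tissues in WT.

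Other sign changes, all of members that did not pass, were in spleen Flox against WT Cd4 (-0.11) and Zap70 (0.0091) under voom and Nfatc1 (-0.0097) under the stricter filter; between tissues in WT Cd3e under voom (-0.020), with no filter (-0.070) and without both libraries numbered 2 (-0.051); over all 14 libraries Cd3e with no filter (-0.023); and for the difference of the contrasts Cd4 (0.11) and Nfatc1 (0.65) without both libraries numbered 2. Leaving out 1 library gave, in tumor Flox against WT, Cd3e -0.28 to 0.30, Cd4 -1.25 to 0.38, Lat -0.17 to 0.090, Nfatc1 -1.0 to 0.71, Themis -4.31 to 0.24 and Zap70 -0.21 to 0.62. In spleen it gave Cd247 -0.11 to 0.93, Cd4 -0.50 to 0.54, Lat -0.29 to 0.00092, Lck -0.016 to 0.38, Nfatc1 -0.11 to 0.15 and Zap70 -0.34 to 0.11. Between tissues it gave in WT Cd247 -0.68 to 1.16, Cd3e -0.065 to 0.15 and Nfatc1 -1.13 to 0.30, in Flox Cd3e -0.16 to 0.38, Cd4 -0.87 to 0.96, Lck -0.091 to 0.42 and Nfatc1 -1.03 to 0.021, and over 14 libraries Cd3e -0.086 to 0.14 and Cd4 -0.013 to 0.67. For the difference of the contrasts it gave Cd247 -0.13 to 1.78, Cd3e -0.21 to 0.33, Cd4 -1.45 to 0.46, Lat -0.015 to 0.28, Nfatc1 -1.01 to 0.67, Themis -4.29 to 0.27 and Zap70 -0.015 to 0.85.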
